A study of Mus musculus with 31 samples.

Results

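The genes described here carry, store or export metal ions in the mouse colon. They comprise 38 genes, named by a list of symbols rather than by measured values: the zinc exporters Slc30a1 to Slc30a9, the manganese exporter Slc30a10, the 14 zinc and metal importers Slc39a1 to Slc39a14, the divalent metal transporters Slc11a1 and Slc11a2, the iron exporter Slc40a1, the copper carriers Slc31a1 and Slc31a2, the metallothioneins Mt1 to Mt4, the ferritin chains Fth1 and Ftl1, and Tfrc, Hamp and Heph. The array held 62 probes with these symbols. After a filter on dim probes, 57 probes remained and 35 of the 38 genes were tested among 19797 genes in all, of 24813 named on the array. All mice were BALB/c and all received azoxymethane (AOM), a carcinogen, by injection and dextran sodium sulphate (DSS), which injures the colonic epithelium, in drinking water, a chemical model of colorectal cancer (CRC). The CRC + E171 mice were also given E171, the titanium dioxide food additive, by gavage at 5 mg/kg body weight per day, whereas the CRC mice received water. RNA of the colon was measured after 2, 7, 14 and 21 days of exposure on 31 one-colour microarrays, 1 array per mouse, with 4 arrays (2 males and 2 females by label) in each of the 8 groups except CRC at 21 days, which had 3 (1 male and 2 females). No group lacked AOM and DSS, so that every difference below is one within the chemically induced model, and the labels give no age of the mice.

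As background, zinc is moved in opposite directions by 2 carrier families, since the Slc39 (ZIP) proteins bring zinc into the cytosol from outside or from vesicles and the Slc30 (ZnT) proteins move it out of the cytosol. Metallothioneins are small cysteine-rich proteins that bind zinc and copper, and Mt1 and Mt2 are induced by zinc through the metal-sensing transcription factor MTF1, which also drives Slc30a1. Iron absorbed by an enterocyte passes Slc11a2 (DMT1) at the lumen, is kept in ferritin, and leaves through Slc40a1 (ferroportin). Hephaestin (Heph) oxidises the iron that ferroportin has exported, while the peptide hormone hepcidin (Hamp) closes ferroportin. Copper enters through Slc31a1 (CTR1), and manganese is taken up by Slc39a8 and Slc39a14 and expelled by Slc30a10.

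MTF1 binds metal response elements, whose core was searched here as the letters TGCACNC or TGCGCNC on either strand. RefSeq promoter windows (GRCm38.p6, 300 bases: 250 before and 50 after the start) matched 31 of the 38 genes, in 38 windows. At least 1 match was found in 47.4% of these windows, for 17 genes, against 25.7% of all 32851 windows. Of the matched genes 4 had 3 or more matches, namely Mt1 with 3, Mt2 with 4, Slc30a10 with 3 and Slc30a4 with 3, compared with 1.97% of all windows. The 250 upstream bases are shown for the main inducible metallothioneins, which are the classical MTF1 targets, and for Slc30a10, the gene with the largest differences below, with every match in capitals; the matches of Mt1 and Mt2 that lie after the start are not shown. A match describes these letters only and is not a binding site. The windows lie at chr8:94178839-94179088 (Mt1), chr8:94172368-94172617 (Mt2) and chr1:185454598-185454847 (Slc30a10), all on the plus strand, and the first capitals of Slc30a10 hold 2 overlapping matches on opposite strands.
Mt1: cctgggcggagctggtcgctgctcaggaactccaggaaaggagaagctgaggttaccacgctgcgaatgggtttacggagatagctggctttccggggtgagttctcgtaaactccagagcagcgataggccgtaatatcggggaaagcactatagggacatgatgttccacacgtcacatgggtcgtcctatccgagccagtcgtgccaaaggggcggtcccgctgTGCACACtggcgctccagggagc
Mt2: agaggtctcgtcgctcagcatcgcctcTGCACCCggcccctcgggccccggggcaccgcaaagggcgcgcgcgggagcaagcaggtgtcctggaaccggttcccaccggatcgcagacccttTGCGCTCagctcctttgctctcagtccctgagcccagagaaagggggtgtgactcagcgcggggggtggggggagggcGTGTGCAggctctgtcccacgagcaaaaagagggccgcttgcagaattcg
Slc30a10: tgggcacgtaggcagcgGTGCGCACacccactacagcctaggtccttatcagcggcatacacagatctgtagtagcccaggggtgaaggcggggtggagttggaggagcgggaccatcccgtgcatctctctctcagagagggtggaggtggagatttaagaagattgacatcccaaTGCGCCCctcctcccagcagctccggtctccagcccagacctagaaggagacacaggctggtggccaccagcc

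Levels are given as log2 signal relative to the 75th percentile of each array, so that 0 is the signal of that percentile, and they are compared between arrays for 1 gene and never between genes. Values by array are listed in the order male 1, male 2, female 1, female 2. A gene was called when its fold change was at least 1.5 with an unadjusted p under 0.05, in 1 linear model of all 8 groups, and Benjamini-Hochberg adjusted p-values over the 19797 genes are given beside it. The labels do not state that mice of a group were housed separately, and p-values measure only the spread between these arrays.

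Some arrays stood apart from the others and bear on every comparison that holds them. The median level of 7 colonocyte markers, each after subtracting its mean over the 31 arrays, was -7.57, -3.74 and -2.48 on CRC 7 days male 1, CRC 7 days male 2 and CRC + E171 14 days male 2, and -0.070 to 1.83 on the other 28 arrays. On the same 3 arrays, 6 goblet cell markers ranged from -6.83 to -2.78 (other arrays -0.256 to 1.10) and 8 neutrophil markers from 2.62 to 5.22 (other arrays -1.66 to 0.926). Markers of squamous epithelium (8 of 10 tested) were at 2.24 to 7.53 on 5 arrays and at -1.75 to 1.26 on the remainder, and pancreatic acinar markers (13 of 14 tested) were at 4.39 to 9.76 on 5 arrays and at -3.13 to 0.147 on the remainder. A list of 6 posterior Hox genes, added after the values had been seen, was at -4.32 on CRC + E171 7 days female 2 and at -5.66 and -4.76 on CRC + E171 14 days female 1 and female 2, against -1.40 to 2.34 on the other 28 arrays. One array labelled male (CRC 14 days male 2) carried Xist, a transcript of females, at -1.6, within the female range of -2.34 to -0.701, while the other males lay at or below -6.53. CRC and CRC + E171 arrays of one day were always on different slides, and CRC arrays always lay in 1 slide column and CRC + E171 arrays in another, so that exposure and array position cannot be told apart.

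The metal genes were mostly measurable: 31 of the 35 tested genes were well above background on all 31 arrays. The neuronal and islet transporters were not, with the synaptic vesicle zinc transporter Slc30a3 well above background on 0 arrays, the insulin granule transporter Slc30a8 on 5 and Slc39a12 on 1, and these 3 were not tested. Among those tested, Slc30a10 was not well above background on 7 arrays (CRC + E171 2 days female 1 and 2, CRC 7 days male 1 and 2, CRC 14 days female 1 and 2, and CRC + E171 14 days male 2), Hamp on 8, and Slc39a5 and Mt4 on 1 each. The standard deviation over all arrays exceeded 1 in 5 of the 35 genes (11.5% of all genes tested) and was under 0.3 in 9 (25.3%). The variable genes were Slc30a10, which ranged from -8.69 to 1.20, Mt4 (-6.21 to 2.84), Slc39a5 (-7.23 to 0.60), Hamp (-8.20 to -1.96) and Slc30a2 (-5.05 to -1.08). In contrast, the Golgi zinc transporter Slc30a6 stayed between 1.05 and 1.79, and the ferritin light chain Ftl1 between 5.14 and 6.61.

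**Figure D1:**
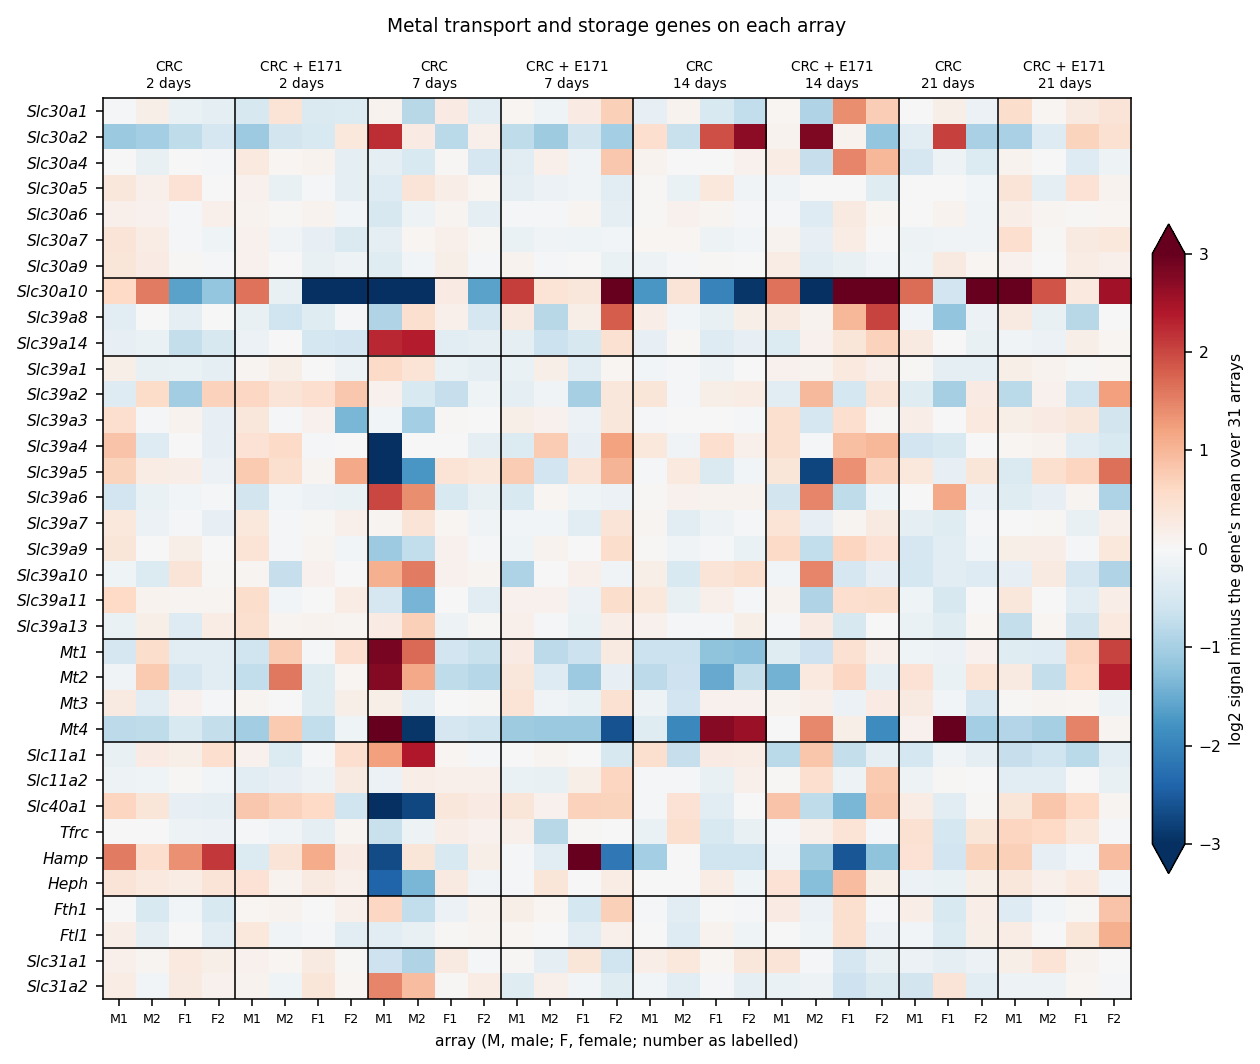
Heat map of the 35 tested metal transport and storage genes (rows, by role) on the 31 arrays (columns, by day and group), coloured by log2 signal minus the gene's own mean over the arrays. The columns CRC 7 days male 1 and male 2 stand out from the other arrays of their day in several rows, with Slc30a10 at -8.12 and -8.69 on the log2 signal scale.

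After 7 days of exposure 10 of the 35 metal genes were called between CRC + E171 and CRC, 28.6% against 12.4% of all genes tested. Of these 6 were up-regulated (6.94% of all genes) and 4 were down-regulated (5.48% of all genes): the manganese exporter Slc30a10, the zinc importers Slc39a4, Slc39a5 and Slc39a11, the iron exporter Slc40a1 and its oxidase Heph were higher with E171, and the zinc and manganese importers Slc39a10 and Slc39a14, the phagosomal transporter Slc11a1 and the copper carrier Slc31a2 were lower. None had an adjusted p under 0.05 (0% of all genes), the lowest adjusted p of the 10 being 0.197. The groups overlapped for 9 of the 10, and Slc30a10 was the only metal gene with no overlap (4.84% of all genes had none). Bulk RNA was measured, so that fewer cells of a type and less RNA per cell cannot be told apart. Without CRC 7 days male 1 and male 2, the arrays low in colonocyte markers, 0 of the 10 were called (2.3% of all genes). Of the 35 differences 28 moved closer to 0 and 11 changed sign, and their median size fell from 0.549 to 0.181. Over all genes the median size was 0.291 with all arrays. The same figures without the 2 arrays are not given for all genes, so that this fall is not shown to be particular to metal genes. Leaving out 1 array of the day at a time gave 4 called metal genes without CRC male 1 (4.62% of all genes were called in the same refit) and 6 without CRC male 2 (8.77%), but 14 without CRC female 1 (20.1%) and 13 without CRC female 2 (18.2%), so that the metal genes moved with the count over all genes. Of these 14 and 13, 4 (Heph, Slc31a2, Slc39a14 and Slc40a1) and 3 (Slc31a2, Slc39a14 and Slc40a1) then had an adjusted p under 0.05, against 6.07% and 2.71% of all genes in the same refits. Only Slc30a10 and Slc40a1 stayed called without each of the 8 arrays of the day.

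**Figure D2:**
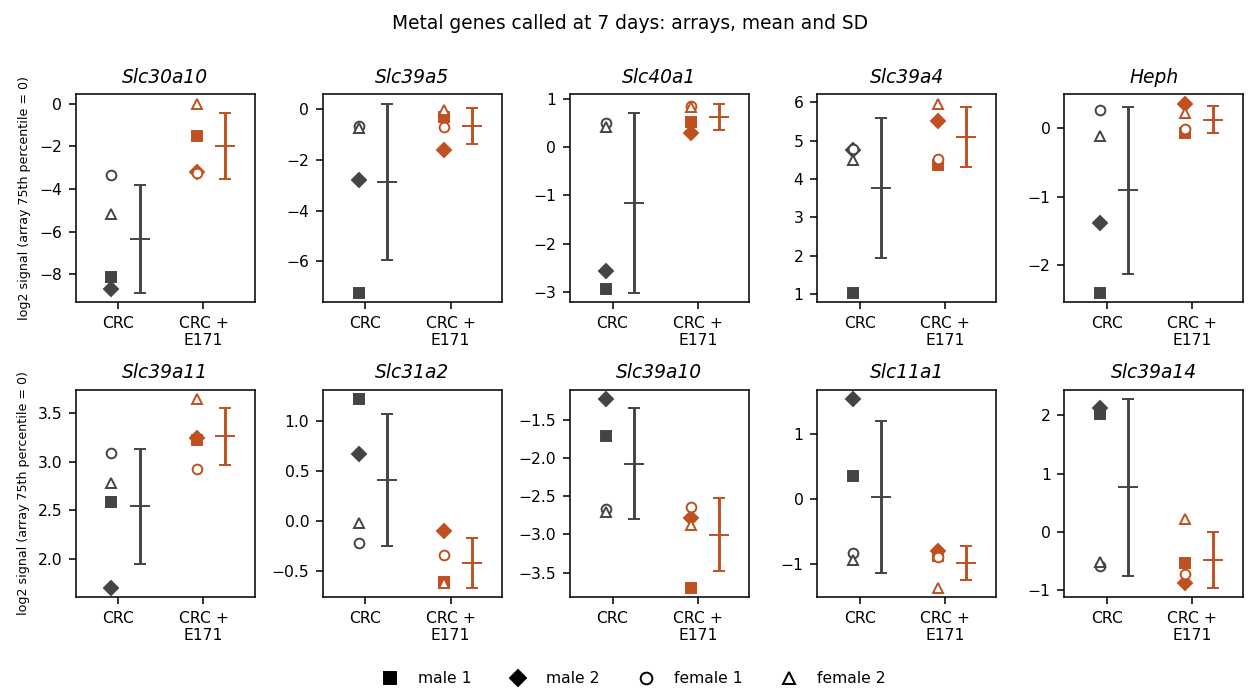
Log2 signal of the 10 metal genes called after 7 days, 1 panel per gene, with 4 CRC (grey) and 4 CRC + E171 (orange) arrays as points, shaped by mouse, and the mean ± SD of each group beside them. CRC male 1 and male 2 (filled symbols) lie apart from the CRC females in several panels, such as Slc40a1 with -2.94 and -2.58 against 0.51 and 0.41.

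Among the genes of iron export and uptake, Slc40a1 (probes at mm9 chr1:45965255-45965314 and chr1:45980637-45980696), the only known cellular iron exporter, measured 0.53, 0.28, 0.86 and 0.83 on the CRC + E171 arrays and -2.94, -2.58, 0.51 and 0.41 on the CRC arrays. All 4 exposed arrays lay near the CRC females, and the CRC males lay far below. The difference was 1.78 ± 0.59 (SE; p = 0.00574, adjusted p = 0.200), with an exact permutation p of 0.114 and 1.6 and 1.96 on its separate probes, and became 0.17 (95% confidence interval -0.81 to 1.15) without the 2 CRC males. Heph, the ferroxidase that works with ferroportin on the basolateral membrane, showed the same arrangement with -0.071, 0.35, -0.019 and 0.21 on the CRC + E171 arrays and -2.40, -1.38, 0.26 and -0.11 on the CRC arrays. Its difference was 1.03 ± 0.39 (SE; p = 0.0152, adjusted p = 0.218) with an exact permutation p of 0.143, and 0.048 (95% confidence interval -0.64 to 0.74) without those males. Slc11a1 (NRAMP1), which pumps metal out of the phagosome of macrophages and neutrophils, gave -0.87, -0.80, -0.88 and -1.36 on the CRC + E171 arrays and 0.36, 1.53, -0.83 and -0.94 on the CRC arrays. Here the CRC males lay above all other arrays of the day, and the difference was -1.01 ± 0.40 (SE; p = 0.0175, adjusted p = 0.224) with an exact permutation p of 0.229. Without the males it was -0.097 (95% confidence interval -0.83 to 0.63). Neutrophil markers moved with Slc11a1 on these arrays (4.26 and 5.22 on the 2 CRC males, at most 0.449 on the other 6 arrays of the day), and their part in the result was not tested. The remaining genes of this class, Slc11a2, Tfrc and Hamp, were not called.

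The zinc importers held 3 genes called up and 1 called down of 11 tested after 7 days, with a median log2 difference of 0.034 against -0.0079 over all genes. Slc39a5 (ZIP5; probe spanning mm9 chr10:127834340-127834762), an importer on the basolateral side of epithelial cells, measured -0.29, -1.63, -0.68 and -0.035 on the CRC + E171 arrays and -7.23, -2.80, -0.65 and -0.75 on the CRC arrays. The low values were again those of the CRC males, 1 of which was not well above background. Its difference was 2.20 ± 0.93 (SE; p = 0.0265, adjusted p = 0.245), exact permutation p = 0.200, and 0.041 (95% confidence interval -1.42 to 1.5) without these arrays. Slc39a4 (ZIP4; mm9 chr15:76442866-76442925), the importer through which enterocytes absorb dietary zinc, measured 4.36, 5.52, 4.52 and 5.96 on the CRC + E171 arrays and 1.03, 4.76, 4.77 and 4.49 on the CRC arrays. Only 1 array, CRC male 1, lay far from the others, and the difference of 1.33 ± 0.54 (SE; p = 0.0208, adjusted p = 0.233), exact permutation p = 0.257, became 0.46 (95% confidence interval -0.34 to 1.26) without the CRC males. Slc39a11 (ZIP11) measured 3.23, 3.24, 2.93 and 3.64 on the CRC + E171 arrays and 2.59, 1.70, 3.09 and 2.78 on the CRC arrays, with overlap between CRC + E171 female 1 and CRC female 1. Its difference was 0.72 ± 0.28 (SE; p = 0.0159, adjusted p = 0.221) with 0.70 and 0.73 on the retained probes, an exact permutation p of 0.0571 and 0.33 (95% confidence interval -0.30 to 0.95) without the males.

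Slc39a10 (ZIP10), a plasma membrane zinc importer prominent in lymphoid cells, was the zinc importer called lower, with -3.70, -2.78, -2.64 and -2.88 on the CRC + E171 arrays and -1.71, -1.22, -2.66 and -2.70 on the CRC arrays. The CRC males were the highest arrays. The difference was -0.93 ± 0.37 (SE; p = 0.0196, adjusted p = 0.230), exact permutation p = 0.0857, but its probes gave -1.29 and -0.56, and without the males it was -0.32 (95% confidence interval -1.18 to 0.54). The 7 importers not called ranged from -0.85 to 0.55.

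Slc39a14 (ZIP14; mm9 chr14:70703394-70703453), which imports zinc, manganese and iron not bound to transferrin and is known to be induced by interleukin 6, measured -0.54, -0.87, -0.71 and 0.22 on the CRC + E171 arrays and 2.02, 2.13, -0.58 and -0.52 on the CRC arrays after 7 days. The CRC males lay far above every other array of the day. Its difference was -1.24 ± 0.43 (SE; p = 0.00759, adjusted p = 0.202), exact permutation p = 0.200, and 0.073 (95% confidence interval -0.49 to 0.63) without them. The copper carrier Slc31a2 (CTR2; mm9 chr4:61958251-61958310 and chr4:61959089-61959148), which lies on endosomes and lysosomes, measured -0.61, -0.097, -0.34 and -0.63 on the CRC + E171 arrays and 1.22, 0.67, -0.22 and -0.025 on the CRC arrays. The CRC males were high and the CRC females overlapped the exposed arrays. This gene had the lowest p of the metal genes at 7 days, with a difference of -0.83 ± 0.23 (SE; p = 0.00128, adjusted p = 0.197), -0.88 and -0.78 on its separate probes, an exact permutation p of 0.0571 and -0.30 (95% confidence interval -0.73 to 0.13) without the males. The other copper carrier, the importer Slc31a1, was not called, at 0.20 ± 0.21 (SE), p = 0.362, exact permutation p = 0.514, and turned to -0.24 without the males.

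**Figure D3:**
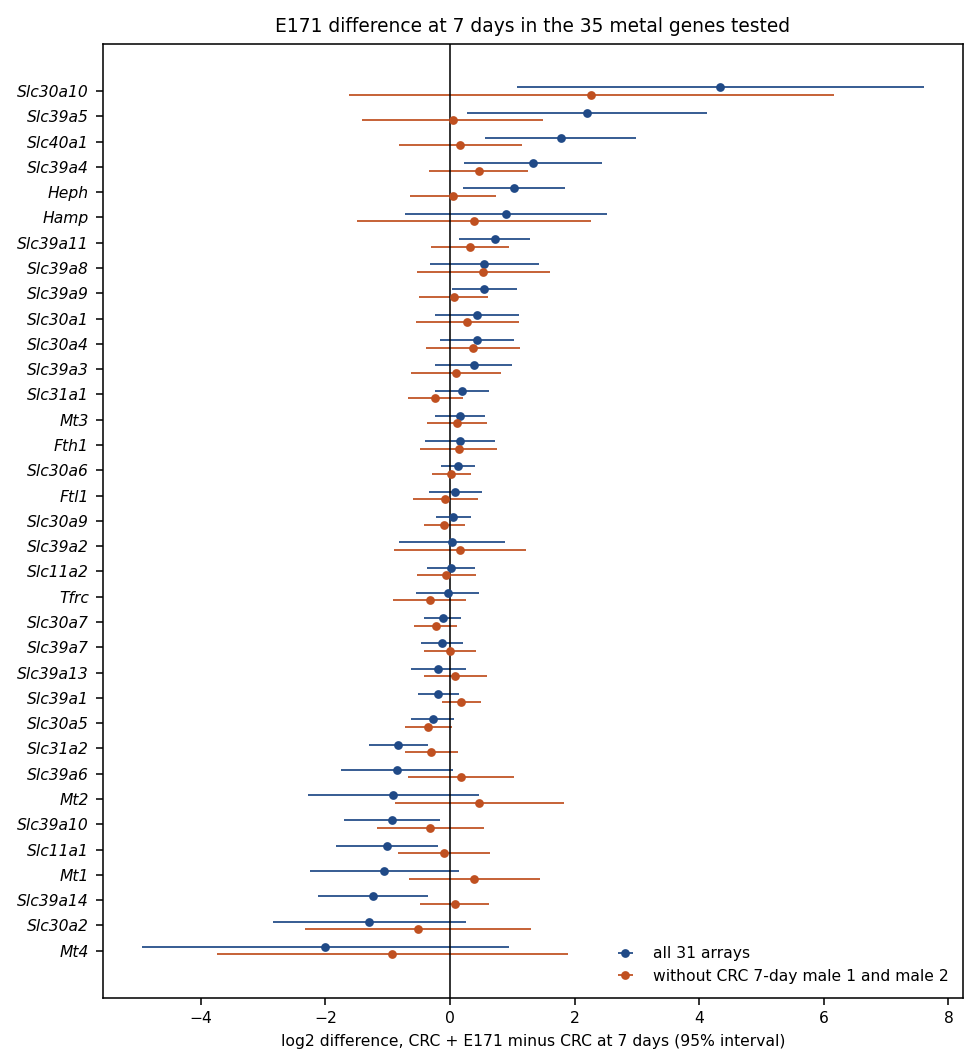
Log2 difference between CRC + E171 and CRC after 7 days for the 35 tested metal genes, with all 31 arrays and without CRC male 1 and male 2, with 95% confidence intervals from the linear model. Slc40a1 moved from 1.78 to 0.17 and Slc39a14 from -1.24 to 0.073 when the 2 arrays were left out.

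Slc30a10 (mm9 chr1:187292107-187292166), which exports manganese at the apical membrane of enterocytes and hepatocytes, gave the largest difference of the metal genes on 3 of the 4 days. After 7 days it measured -1.53, -3.19, -3.25 and -0.0069 on the CRC + E171 arrays and -8.12, -8.69, -3.33 and -5.19 on the CRC arrays, and the lowest exposed array lay just above the highest CRC array. The difference was 4.34 ± 1.59 (SE; p = 0.0113, adjusted p = 0.207), a fold of 20.3, with an exact permutation p of 0.0286, the smallest that 4 against 4 arrays allow. Both CRC males were not well above background, so that their values and the fold are uncertain. Without the males the difference was 2.27 (95% confidence interval -1.62 to 6.16) with n = 4 against 2, and without single arrays it ranged from 3.55 to 5.34 and stayed called in all 8 cases. Array weights lowered it to 2.32, not called, and normexp background correction to 2.90.

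After 2 days the same gene measured -1.96, -3.82, -7.27 and -7.81 on the CRC + E171 arrays and -2.98, -2.03, -5.19 and -4.76 on the CRC arrays, a difference of -1.48 ± 1.59 (SE), p = 0.361, exact permutation p = 0.400. After 14 days it measured -1.96, -8.15, 1.20 and 0.24 on the CRC + E171 arrays and -5.34, -3.21, -5.59 and -6.51 on the CRC arrays. Exposed male 1 and both exposed females lay above every CRC array of that day. Exposed male 2 and both CRC females were not well above background and so have no order among them. The difference was 3.0 ± 1.59 (SE), p = 0.0706, exact permutation p = 0.229. After 21 days the values were -0.23, -1.70, -3.30 and -1.08 on the CRC + E171 arrays and -1.91, -4.17 and -0.50 on the CRC arrays, and the groups overlapped, with a difference of 0.62 ± 1.72 (SE), p = 0.723, exact permutation p = 0.571, which turned to -0.37 without CRC female 1. Without single arrays it ranged over -2.56 to -0.61 at 2 days and 1.88 to 4.99 at 14 days. The F test of whether the E171 effect differed between days gave an F of 2.61 for this gene, adjusted p = 0.716.

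The 3 arrays low in posterior Hox genes carried the 3 highest Slc30a10 values of all 31 arrays, -0.0069, 1.20 and 0.24. On these arrays, in the same order, Slc39a8 measured -1.53, -2.37 and -1.33, Slc30a1 0.71, 1.37 and 0.71, Slc30a4 3.01, 3.68 and 3.20, and the zinc importer Slc39a4 5.96, 5.67 and 5.77, in each case the 3 highest of that gene over the 31 arrays. This pattern was noticed after the values had been seen. Its share over all genes tested is not given, so that it is not shown to be particular to metal genes. Without these 3 arrays the 14-day difference of Slc30a10 was 0.11 and the 7-day difference 3.68. Without the 3 arrays low in colonocyte markers the 14-day difference was 4.99 (adjusted p = 0.0435) and the 7-day difference 2.27, and without all 6 arrays, which leaves male 1 as the only exposed array at 14 days, they were 3.21 and 1.61. The 7-day difference was then not called, and the 14-day value, of 1 array against 4, is given without a call.

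**Figure D4:**
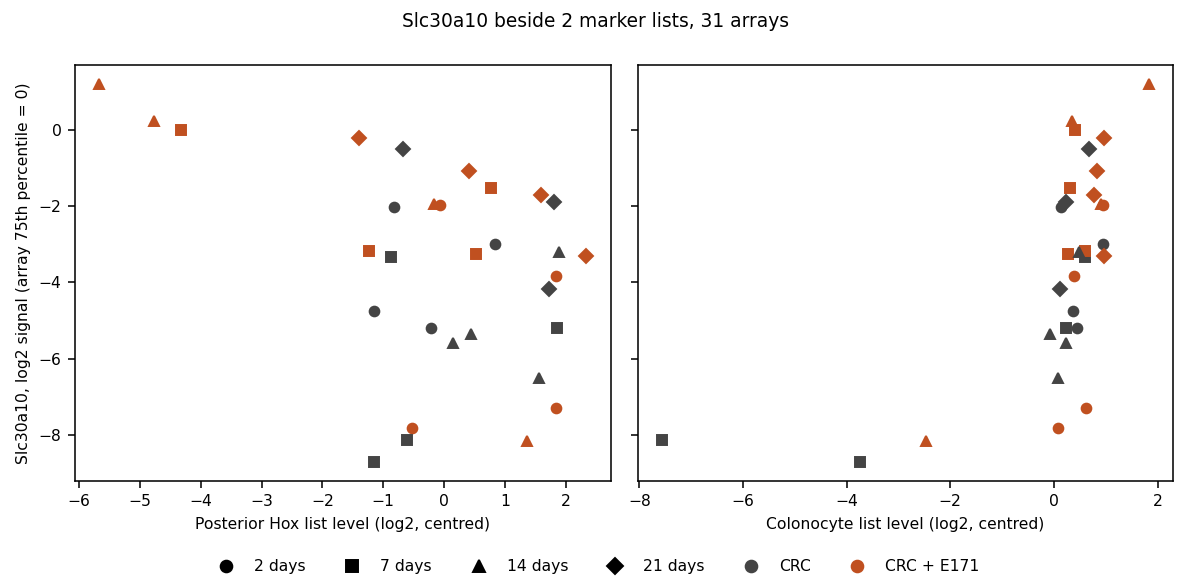
Log2 signal of Slc30a10 on the 31 arrays against the median level of the posterior Hox list and of the colonocyte list, coloured by group (grey CRC, orange CRC + E171) and shaped by day. The 3 arrays lowest in the Hox list (-5.66 to -4.32) hold the 3 highest Slc30a10 values, and the 3 arrays lowest in the colonocyte list (-7.57 to -2.48) are all among the 7 that were not well above background for this gene.

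None of the 4 metallothioneins was called between CRC + E171 and CRC on any day. Mt1 measured 2.0, 0.96, 1.10 and 2.01 on the CRC + E171 arrays and 4.58, 3.46, 1.18 and 1.08 on the CRC arrays after 7 days, and Mt2 4.95, 4.24, 3.54 and 4.37 on the CRC + E171 arrays and 7.37, 5.75, 3.85 and 3.75 on the CRC arrays; both genes were highest on CRC male 1 and male 2. The differences were -1.05 ± 0.58 (SE), p = 0.0809, exact permutation p = 0.314 for Mt1 and -0.91 ± 0.67 (SE), p = 0.184, exact permutation p = 0.400 for Mt2. Both turned without these males, to 0.39 (95% confidence interval -0.65 to 1.44) for Mt1 and 0.47 (95% confidence interval -0.89 to 1.83) for Mt2, and were -0.39 and -0.18 without male 1 alone. After 14 days Mt1 measured 1.38, 1.13, 2.20 and 1.90 on the CRC + E171 arrays and 1.11, 1.10, 0.54 and 0.49 on the CRC arrays, without overlap, and the difference was 0.85 ± 0.58 (SE), p = 0.157, exact permutation p = 0.0286. With Mt1 and the zinc importer Slc39a1 (3.83, 3.81, 4.01 and 3.87 on the CRC + E171 arrays and 3.64, 3.65, 3.56 and 3.70 on the CRC arrays, 0.24 ± 0.16 (SE), p = 0.146, exact permutation p = 0.0286), 2 of the 35 metal genes did not overlap at 14 days, as did 5.89% of all genes. Mt1 at 21 days measured 1.39, 1.36, 2.39 and 3.77 on the CRC + E171 arrays and 1.63, 1.56 and 1.88 on the CRC arrays, the highest being exposed female 2, an array high in pancreatic acinar markers (9.76). Mt3, known as the metallothionein of brain, stayed within -1.58 to -0.54 on all arrays. Mt1 and Mt2, which lie side by side on chromosome 8, followed each other over the 31 arrays, with Pearson's r = 0.894 and Spearman's rho = 0.836 (permutation p = 1e-05 for both, the smallest 100000 permutations give; adjusted over 4 relations 2e-05 and 4e-05), r = 0.792 without the 2 arrays farthest from the median of Mt1, and r between 0.793 and 0.924 within each of the 3 scan days.

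Mt4, the metallothionein of stratified squamous epithelium, varied most widely of the 4. After 7 days its highest and lowest values were both on CRC arrays, with -4.36, -4.40, -4.39 and -5.90 on the CRC + E171 arrays and 2.84, -6.21, -3.78 and -3.89 on the CRC arrays, a difference of -2.0 ± 1.43 (SE), p = 0.174, exact permutation p = 0.343, which was -0.14 without CRC male 1, -3.15 without CRC male 2 and -0.93 without both. After 21 days it measured -4.16, -4.27, -1.78 and -3.19 on the CRC + E171 arrays and -3.15, 2.71 and -4.30 on the CRC arrays, a difference of -1.77 ± 1.55 (SE), p = 0.263, exact permutation p = 0.486, which turned to 0.37 without CRC female 1. The high values, 2.84 on CRC 7 days male 1 and 2.71 on CRC 21 days female 1, belonged to the arrays with the highest squamous markers (7.53 and 6.86). The next highest Mt4 values, -0.55 and -0.68, were on CRC 14 days female 1 and female 2, where squamous markers were not high (-0.962 and -0.648). They lay above CRC + E171 14 days male 2 (-1.84) and CRC + E171 21 days female 1 (-1.78), with squamous markers at 4.56 and 3.79. The part of that epithelium in the result was not tested. Mt4 and Slc30a2 were related over the 31 arrays (r = 0.789, rho = 0.740, permutation p = 1e-05 and 2e-05, adjusted 2e-05 and 4e-05), with r = 0.755 without the 2 most extreme arrays and 0.738 to 0.966 within scan days. Neither this relation nor that of Mt1 and Mt2 was planned, and the permutations moved values over all 31 arrays without regard to group. Their p-values therefore do not allow for the choice of the pairs. On the 2 arrays highest in squamous markers Slc30a2, like Mt4, was among the highest, at -1.65 and -1.82. It was also among the highest on CRC 14 days female 1 and female 2, at -1.95 and -1.20.

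**Figure D5:**
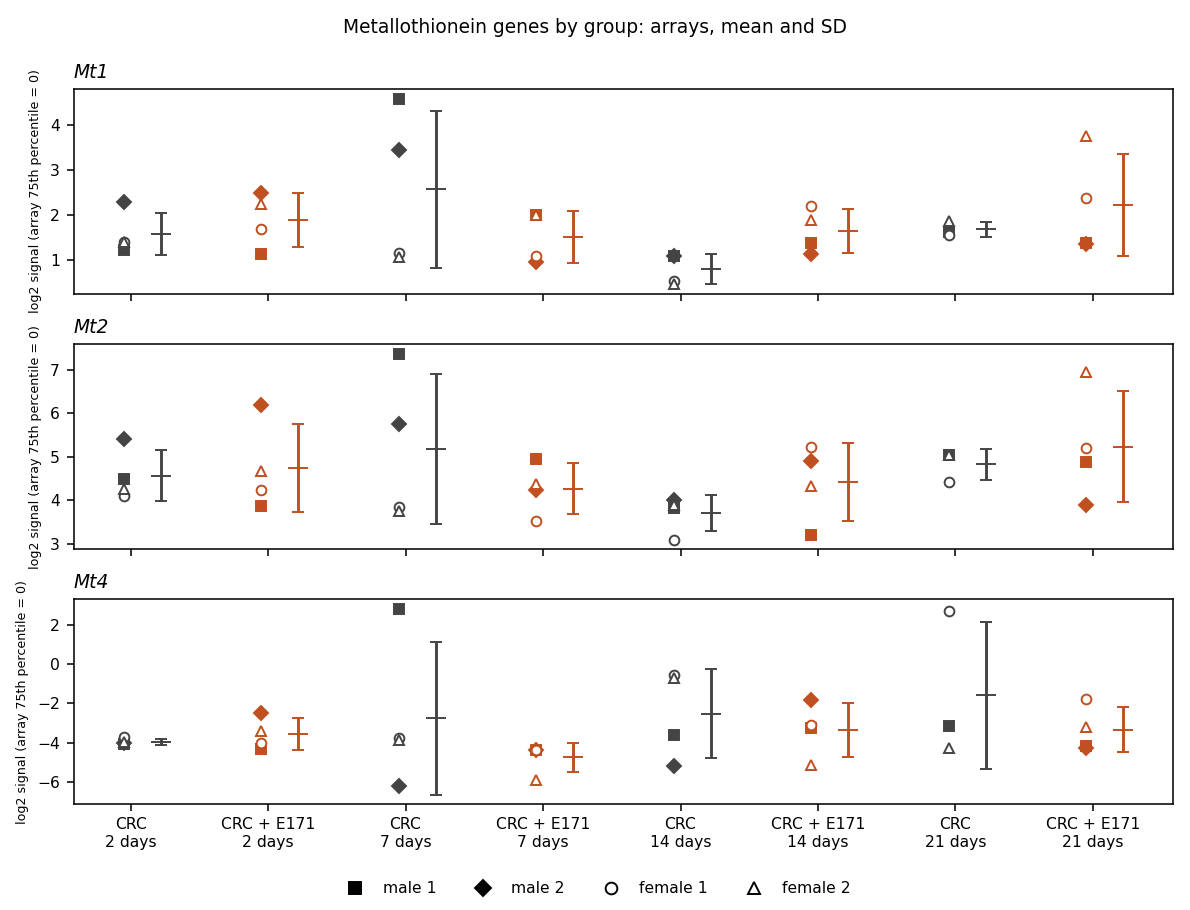
Log2 signal of Mt1, Mt2 and Mt4 in the 8 groups, with CRC (grey) and CRC + E171 (orange) arrays as points, shaped by mouse, and the mean ± SD of each group beside them. Mt1 does not overlap between the groups at 14 days (1.13 to 2.20 with E171, 0.49 to 1.11 without), and Mt4 is highest on CRC 7 days male 1 (2.84) and CRC 21 days female 1 (2.71).

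The zinc exporters were not called on any day. Slc30a2 (ZnT2), which loads zinc into secretory vesicles, had the largest 7-day difference of this class, with -4.63, -4.93, -4.44 and -4.89 on the CRC + E171 arrays and -1.65, -3.64, -4.69 and -3.73 on the CRC arrays. CRC male 1 was the highest array, and the difference was -1.29 ± 0.75 (SE), p = 0.0970, exact permutation p = 0.0857, -0.70 without this array and -0.51 without both CRC males. The plasma membrane exporter Slc30a1 differed by 0.43 ± 0.33 (SE), p = 0.202, exact permutation p = 0.257 and the vesicular transporter Slc30a4 by 0.43 ± 0.29 (SE), p = 0.149, exact permutation p = 0.143. Without single arrays these ranged over 0.22 to 0.58 and 0.21 to 0.58. The ferritin heavy chain Fth1 measured 6.90, 6.79, 6.19 and 7.45 on the CRC + E171 arrays and 7.35, 5.98, 6.54 and 6.84 on the CRC arrays after 7 days, a difference of 0.15 ± 0.27 (SE), p = 0.577, exact permutation p = 0.657, and Ftl1 differed by 0.084 ± 0.21 (SE), p = 0.687, exact permutation p = 0.657. The exposed arrays alone spread from 6.19 to 7.45 for Fth1, and its difference turned to -0.079 without CRC male 2 and also turned without exposed female 2.

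After 2 days of exposure 0 of the 35 metal genes were called (1.7% of all genes), 0 had an unadjusted p under 0.05 (2.72%), 0 an adjusted p under 0.05 (0%), and 0 had groups without overlap (3.91%). Hamp, the hormone that blocks iron export, had the largest difference of the iron transport genes with -5.93, -5.13, -4.41 and -5.28 on the CRC + E171 arrays and -3.95, -5.01, -4.14 and -3.41 on the CRC arrays, -1.06 ± 0.79 (SE), p = 0.191, exact permutation p = 0.0571. All exposed arrays but female 1 lay below every CRC array. Hepatocyte markers were at 0.276, 1.64, -0.188 and -0.474 on the CRC + E171 arrays and at 2.765, 0.319, 1.385 and 1.399 on the CRC arrays. Their part in the result was not tested. The zinc importer Slc39a2 measured -3.33, -3.56, -3.44 and -3.15 on the CRC + E171 arrays and -4.34, -3.40, -4.99 and -3.28 on the CRC arrays, 0.63 ± 0.41 (SE), p = 0.138, exact permutation p = 0.286, and Slc30a2 -4.97, -4.42, -4.34 and -3.57 on the CRC + E171 arrays and -4.98, -4.90, -4.65 and -4.38 on the CRC arrays, 0.40 ± 0.75 (SE), p = 0.595, exact permutation p = 0.286. Both overlapped between the groups. Mt4 measured -4.33, -2.5, -4.02 and -3.41 on the CRC + E171 arrays and -4.06, -4.04, -3.74 and -3.99 on the CRC arrays, 0.39 ± 1.43 (SE), p = 0.785, exact permutation p = 0.400. Fth1 measured 6.78, 6.83, 6.71 and 6.88 on the CRC + E171 arrays and 6.74, 6.26, 6.65 and 6.26 on the CRC arrays, 0.33 ± 0.27 (SE), p = 0.241, exact permutation p = 0.0571. The copper importer Slc31a1 measured 2.49, 2.41, 2.62 and 2.38 on the CRC + E171 arrays and 2.49, 2.43, 2.65 and 2.52 on the CRC arrays, a difference of -0.049 ± 0.21 (SE), p = 0.818, exact permutation p = 0.457. Without single arrays the differences at 2 days ranged over 0.30 to 0.87 for Slc39a2, 0.15 to 0.62 for Slc30a2 and 0.04 to 0.65 for Mt4.

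After 14 days 0 of the 35 were called (6.34% of all genes), 0 had an unadjusted p under 0.05 (8%) and 0 an adjusted p under 0.05 (0%). Slc39a4 led the zinc importers with 5.25, 4.70, 5.67 and 5.77 on the CRC + E171 arrays and 5.07, 4.65, 5.26 and 4.92 on the CRC arrays, 0.37 ± 0.54 (SE), p = 0.495, exact permutation p = 0.229. Slc31a1 measured 2.73, 2.31, 1.85 and 2.13 on the CRC + E171 arrays and 2.54, 2.67, 2.40 and 2.70 on the CRC arrays, -0.32 ± 0.21 (SE), p = 0.139, exact permutation p = 0.171. Both genes overlapped between the groups. The exposed females, low in posterior Hox genes, held the highest Slc39a4 and the lowest Slc31a1 values of the day, and the differences without both are not given. Slc30a2 measured -3.78, -1.08, -3.78 and -5.05 on the CRC + E171 arrays and -3.37, -4.55, -1.95 and -1.20 on the CRC arrays, -0.65 ± 0.75 (SE), p = 0.395, exact permutation p = 0.571, with exposed male 2, an array high in squamous markers, at the top. Hamp measured -5.62, -6.57, -8.08 and -6.71 on the CRC + E171 arrays and -6.53, -5.53, -6.12 and -6.11 on the CRC arrays, -0.67 ± 0.79 (SE), p = 0.401, exact permutation p = 0.257, and was not well above background on 6 of the 8 arrays. Fth1 measured 6.96, 6.55, 7.20 and 6.70 on the CRC + E171 arrays and 6.67, 6.41, 6.71 and 6.68 on the CRC arrays, 0.23 ± 0.27 (SE), p = 0.403, exact permutation p = 0.229. Without single arrays the differences at 14 days ranged over 0.23 to 0.59 for Slc39a4, -0.48 to -0.19 for Slc31a1, -1.43 to -0.11 for Slc30a2, -1.05 to -0.23 for Hamp and 0.12 to 0.33 for Fth1. Without the arrays low in colonocyte markers (at this day only CRC + E171 male 2) 9 of the 35 were called (14.1% of all genes), and the adjusted p was under 0.05 for Slc30a1, Slc30a10 and Slc39a9 (2.03% of all genes). Leaving out the arrays low in posterior Hox genes as well keeps 1 exposed array, male 1, against 4 CRC arrays, where 2 of the 35 (Slc11a1 and Slc39a9) passed the call rule against 9.86% of all genes, with the spread taken from the other groups.

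After 21 days 0 of the 35 were called (2.66% of all genes) and 0 had an adjusted p under 0.05 (0%), whereas Ftl1 and Slc30a7 had an unadjusted p under 0.05 (2 genes, against 5.81% of all genes). Ftl1, the ferritin light chain, measured 5.76, 5.55, 5.90 and 6.61 on the CRC + E171 arrays and 5.45, 5.14 and 5.72 on the CRC arrays, 0.52 ± 0.22 (SE), p = 0.0271, exact permutation p = 0.114. The highest value was that of exposed female 2, the array high in pancreatic acinar markers (9.76), without which the difference was 0.30, and it was 0.37 without CRC female 1, with an unadjusted p above 0.05 in both refits. Slc30a7 (ZnT7), which supplies zinc to enzymes of the early secretory pathway, measured 0.91, 0.45, 0.66 and 0.73 on the CRC + E171 arrays and 0.26, 0.30 and 0.30 on the CRC arrays, 0.40 ± 0.15 (SE), p = 0.0137, exact permutation p = 0.0571. Its exposed arrays all lay above the CRC arrays. The same held for Slc31a1 with 2.53, 2.76, 2.46 and 2.35 on the CRC + E171 arrays and 2.17, 2.05 and 2.17 on the CRC arrays, 0.39 ± 0.23 (SE), p = 0.0976, exact permutation p = 0.0571, and for Slc39a9 with -1.97, -1.95, -2.22 and -1.84 on the CRC + E171 arrays and -2.65, -2.49 and -2.23 on the CRC arrays, 0.46 ± 0.28 (SE), p = 0.108, exact permutation p = 0.0571. These 3 were the metal genes without overlap, against 8.02% of all genes, and an exact test of 4 against 3 arrays cannot go below 0.0286. Slc39a6 measured -0.71, -0.61, -0.27 and -1.27 on the CRC + E171 arrays and -0.36, 0.78 and -0.54 on the CRC arrays, -0.68 ± 0.47 (SE), p = 0.166, exact permutation p = 0.171, which was -0.27 without CRC female 1, the array at 6.86 in squamous markers, and Slc40a1 0.52, 0.98, 0.76 and 0.24 on the CRC + E171 arrays and 0.39, -0.19 and 0.20 on the CRC arrays, 0.50 ± 0.64 (SE), p = 0.443, exact permutation p = 0.114.

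Averaged over the 4 days, 0 of the 35 were called (1.79% of all genes) and 0 had an adjusted p under 0.05 (0.00505%), while 3 had an unadjusted p under 0.05 (10% of all genes). These were Slc39a9, at 0.32 ± 0.13 (SE), adjusted p = 0.495, Slc11a1, at -0.44 ± 0.20 (SE), adjusted p = 0.495, and Slc30a4, at 0.31 ± 0.15 (SE), adjusted p = 0.498. Slc11a1 was lower and Slc30a4 higher with E171 on each of the 4 days, and Slc39a9, a zinc importer of the secretory pathway, was higher on all but day 2. At 14 days Slc30a4 measured 2.44, 1.53, 3.68 and 3.20 on the CRC + E171 arrays and 2.32, 2.23, 2.20 and 2.34 on the CRC arrays. Its direction that day leaned on the exposed females, the arrays low in posterior Hox genes. The class with the largest mean effect was manganese, with Slc30a10 at 1.62 ± 0.81 (SE), adjusted p = 0.502. This mean holds the 3 highest values of the gene, on the CRC + E171 arrays low in posterior Hox genes, and is not given without them. The largest of the other classes were Slc40a1 (0.60 ± 0.30 (SE), adjusted p = 0.502), Mt4 (-1.05 ± 0.73 (SE), adjusted p = 0.591), Slc39a5 (0.75 ± 0.48 (SE), adjusted p = 0.560), Slc30a2 (-0.46 ± 0.38 (SE), adjusted p = 0.649), Slc31a2 (-0.24 ± 0.12 (SE), adjusted p = 0.501) and Fth1 (0.21 ± 0.14 (SE), adjusted p = 0.574). These means hold the 7-day difference, and without CRC 7 days male 1 and male 2 they were 0.20 for Slc40a1, 0.21 for Slc39a5, -0.21 for Slc11a1, -0.11 for Slc31a2, 0.19 for Slc39a9, -0.27 for Slc30a2 and 1.10 for Slc30a10. Without CRC male 1 alone, Slc39a5 was at 0.39 and Mt4 at -0.58, and without CRC 21 days female 1 Mt4 was at -0.52 and Slc30a2 at -0.24. In the F test of the E171 effect between days, 2 of the 35 genes had an unadjusted p under 0.05 (6.53% of all genes), Slc30a7 and Slc31a2, and no metal gene had an adjusted p under 0.716.

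The days were then compared over both groups together. Between 7 and 2 days 2 of the 35 were called (5.37% of all genes; adjusted p under 0.05 in 0%). The importer Slc39a14 had a lowest, median and highest value of -0.87, -0.53 and 2.13 at 7 days and -0.95, -0.59 and -0.25 at 2 days, a difference of 0.75 ± 0.30 (SE), p = 0.0201, exact permutation p = 0.138, and Heph -2.40, -0.045 and 0.35 at 7 days and 0.11, 0.28 and 0.44 at 2 days, a difference of -0.68 ± 0.28 (SE), p = 0.0230, exact permutation p = 0.0192. The highest Slc39a14 and the lowest Heph values were those of CRC 7 days male 1 and male 2, and leaving out either of these arrays ended both calls (0.52 for Slc39a14 and -0.43 for Heph at the least), while the Slc39a14 call was also lost without CRC + E171 7 days female 2. Within each group the difference was 1.41 on the CRC and 0.087 on the CRC + E171 arrays for Slc39a14, and -1.23 on the CRC and -0.12 on the CRC + E171 arrays for Heph. Slc31a1 had 1.45, 2.18 and 2.71 at 7 days and 2.38, 2.49 and 2.65 at 2 days, -0.37 ± 0.15 (SE), p = 0.0196, exact permutation p = 0.0506, a fold under the threshold. Not called were Hamp (-8.20, -5.71 and -1.96 at 7 days and -5.93, -4.71 and -3.41 at 2 days; -1.05 ± 0.56 (SE), p = 0.0697, exact permutation p = 0.195), Slc39a5 (-7.23, -0.72 and -0.035 at 7 days and -1.24, -0.70 and 0.088 at 2 days; -1.13 ± 0.66 (SE), p = 0.10, exact permutation p = 0.165) and Slc30a2 (-4.93, -4.54 and -1.65 at 7 days and -4.98, -4.53 and -3.57 at 2 days; 0.45 ± 0.53 (SE), p = 0.404, exact permutation p = 0.346). Mt1 (0.96, 1.59 and 4.58 at 7 days and 1.14, 1.56 and 2.5 at 2 days) differed by 0.30 ± 0.41 (SE), p = 0.466, exact permutation p = 0.563, turning to -0.031 without CRC 7 days male 1, and Fth1 (5.98, 6.81 and 7.45 at 7 days and 6.26, 6.73 and 6.88 at 2 days) by 0.11 ± 0.19 (SE), p = 0.559, exact permutation p = 0.590.

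Between 14 and 2 days 3 of the 35 were called (4.6% of all genes; adjusted p under 0.05 in 0%). Hamp was down-regulated, with a lowest, median and highest value of -8.08, -6.33 and -5.53 at 14 days and -5.93, -4.71 and -3.41 at 2 days and a difference of -1.75 ± 0.56 (SE; p = 0.00416, adjusted p = 0.277), exact permutation p = 0.000816. The days barely overlapped for this hepcidin transcript, the call held without each single array (-1.94 to -1.53), and 6 of the 8 arrays at 14 days were not well above background, so that the level there is poorly measured. Hepatocyte markers (6 of 6 tested) moved with this liver hormone, at -0.474, 0.852 and 2.77 (lowest, median and highest) on the arrays at 2 days and at -2.03, -0.493 and 0.763 at 14 days, and the highest Hamp value of all arrays, -1.96, was on the array highest in these markers (CRC + E171 7 days female 1, at 3.64). Their part in the result was not tested. Slc30a2 was up-regulated, with -5.05, -3.57 and -1.08 at 14 days and -4.98, -4.53 and -3.57 at 2 days, a difference of 1.43 ± 0.53 (SE; p = 0.0123, adjusted p = 0.369), exact permutation p = 0.0257. Its highest values at 14 days were -1.08, -1.20 and -1.95, on CRC + E171 male 2 and on CRC female 2 and female 1. Slc39a8, which imports manganese and zinc, had -3.59, -3.17 and -1.33 at 14 days and -3.96, -3.62 and -3.34 at 2 days, a difference of 0.67 ± 0.30 (SE; p = 0.0358, adjusted p = 0.485), exact permutation p = 0.00531. This call was lost without any 1 of 8 arrays (CRC 2 days male 1 or female 1, CRC + E171 2 days male 2 or female 1, CRC 14 days male 1 or female 2, CRC + E171 14 days female 1 or female 2), where the difference was as low as 0.47, and without the arrays low in posterior Hox genes, which hold its highest values. The difference was 0.17 on the CRC and 1.17 on the CRC + E171 arrays for Slc39a8, -1.95 on the CRC and -1.56 on the CRC + E171 arrays for Hamp and 1.96 on the CRC and 0.90 on the CRC + E171 arrays for Slc30a2. The difference between the groups was not tested for these 2 days alone. The F test of the E171 effect between all days gave an unadjusted p of 0.421 for Slc39a8, 0.320 for Hamp and 0.462 for Slc30a2. Of the genes not called, Slc31a2 (-0.87, -0.48 and -0.30 at 14 days and -0.39, -0.13 and 0.11 at 2 days) differed by -0.38 ± 0.16 (SE), p = 0.0257, exact permutation p = 0.00122, a fold under the threshold. Mt4 differed by 0.83 ± 1.01 (SE), p = 0.420, exact permutation p = 0.258, Slc30a10 by 0.81 ± 1.12 (SE), p = 0.476, exact permutation p = 0.584, Slc39a5 by -0.50 ± 0.66 (SE), p = 0.454, exact permutation p = 0.356 and Fth1 by 0.097 ± 0.19 (SE), p = 0.618, exact permutation p = 0.348.

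Between 21 and 2 days 1 of the 35 was called (6.11% of all genes; adjusted p under 0.05 in 0.374%). This was Slc30a10, up-regulated from day 2, with -4.17, -1.70 and -0.23 at 21 days and -7.81, -4.29 and -1.96 at 2 days and a difference of 2.59 ± 1.17 (SE; p = 0.0357, adjusted p = 0.306), exact permutation p = 0.0245. The lower end of day 2 rests on exposed females not well above background, and the call was lost without any 1 of 8 arrays (CRC 2 days female 1 or female 2, CRC + E171 2 days female 1 or female 2, CRC 21 days male 1 or female 2, CRC + E171 21 days male 1 or female 2), with a difference of 2.16 at the least. It was 1.55 on the CRC and 3.64 on the CRC + E171 arrays. Between 21 and 7 days 2 of the 35 were called (7.32% of all genes; adjusted p under 0.05 in 0.157%). Slc11a1 had -1.69, -1.40 and -0.97 at 21 days and -1.36, -0.85 and 1.53 at 7 days, a difference of -0.86 ± 0.29 (SE; p = 0.00714, adjusted p = 0.194), exact permutation p = 0.0126, and remained called without each single array but not without both CRC 7 days males. Slc39a10 had -3.69, -3.16 and -2.5 at 21 days and -3.70, -2.68 and -1.22 at 7 days, a difference of -0.62 ± 0.27 (SE; p = 0.0320, adjusted p = 0.287), exact permutation p = 0.0665, and lost its call without any 1 of 7 arrays (CRC 7 days male 1 or male 2, CRC + E171 7 days male 2 or female 1, CRC 21 days male 1, CRC + E171 21 days female 1 or female 2), with a difference of -0.48 at the closest to 0. The difference was -1.12 on the CRC and -0.13 on the CRC + E171 arrays for Slc39a10 and -1.20 on the CRC and -0.51 on the CRC + E171 arrays for Slc11a1. The leading genes of the other classes were not called. From 2 to 21 days these differences were -0.61 ± 0.58 (SE), p = 0.305, exact permutation p = 0.124 for Hamp, 1.29 ± 1.05 (SE), p = 0.230, exact permutation p = 0.186 for Mt4, 0.74 ± 0.55 (SE), p = 0.190, exact permutation p = 0.103 for Slc30a2, -0.46 ± 0.30 (SE), p = 0.142, exact permutation p = 0.215 for Slc39a2, -0.23 ± 0.17 (SE), p = 0.178, exact permutation p = 0.106 for Slc31a2 and 0.23 ± 0.15 (SE), p = 0.148, exact permutation p = 0.220 for Ftl1. From 7 to 21 days they were 2.28 ± 1.17 (SE), p = 0.0623, exact permutation p = 0.0702 for Slc30a10, 1.06 ± 0.69 (SE), p = 0.134, exact permutation p = 0.325 for Slc39a5, 1.29 ± 1.05 (SE), p = 0.230, exact permutation p = 0.382 for Mt4, -0.36 ± 0.17 (SE), p = 0.0413, exact permutation p = 0.211 for Slc31a2, 0.29 ± 0.55 (SE), p = 0.60, exact permutation p = 0.590 for Slc30a2, which turned to -0.16 without CRC 21 days female 1, and 0.23 ± 0.15 (SE), p = 0.146, exact permutation p = 0.182 for Ftl1.

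Of 45 other genes of metal handling, 43 were tested and 12 were called between CRC + E171 and CRC after 7 days (12.4% of all genes), 3 higher (6.94%) and 9 lower (5.48%). The 3 higher were Aco1, the cytosolic aconitase that doubles as an iron regulatory protein (0.64 ± 0.23), the copper chaperone of cytochrome oxidase Sco1 (0.71 ± 0.20) and the Golgi calcium and manganese pump Atp2c2 (1.37 ± 0.61), as log2 difference ± SE. The 9 lower were the neutrophil iron-binding proteins Ltf (-3.96 ± 1.88) and Lcn2 (-3.54 ± 1.38), the haem-degrading enzyme Hmox1 (-1.63 ± 0.56), the ferroxidase ceruloplasmin Cp (-1.13 ± 0.53), the metalloreductases Steap1 (-0.81 ± 0.38), Steap2 (-0.87 ± 0.37) and Steap4 (-1.44 ± 0.65), Flvcr2 (-1.28 ± 0.60) and the iron-sensing ligase subunit Fbxl5 (-0.65 ± 0.20). None had an adjusted p under 0.05. Values by array, and differences without CRC 7 days male 1 and male 2, are not given for these 12 genes. In that refit 2.3% of all genes were called. Neutrophil markers, like Ltf and Lcn2, were lower with E171 after 7 days, with a median of -0.86 on the CRC + E171 and 2.03 on the CRC arrays. Their part was not tested. After 14 days 2 of 43 were called (6.34% of all genes), both lower, the folate and haem carrier Slc46a1 (-1.23 ± 0.58) and transferrin, Trf (-0.63 ± 0.29), and 0 were called after 2 or 21 days or in the mean.

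Between days, 5 of these 43 were called at 7 against 2 days (5.37% of all genes), namely Hmox1 (0.99 ± 0.39), Lcn2 (2.32 ± 0.97), its receptor Slc22a17 (0.65 ± 0.26), the transferrin sensor Tfr2 (0.69 ± 0.28) and Atp2c2 (-0.94 ± 0.43). At 14 against 2 days 2 were called (4.6% of all genes), the second hepcidin gene Hamp2 (-1.80 ± 0.73) and Tmprss6, the protease that restrains hepcidin (-0.88 ± 0.36). Hamp and Hamp2 are near-identical copies, so that their probes may share signal, and both were lower at 14 days. At 21 against 2 days 3 were called (6.11% of all genes), Sco2 (0.63 ± 0.16), Tmprss6 (-0.95 ± 0.37) and the haem-binding hemopexin Hpx (-1.28 ± 0.54). Hamp2, Tmprss6 and Hpx are known as genes of liver, and the hepatocyte markers, given above for 2 and 14 days, had a median of -0.216 at 21 days (-0.76 to 0.395). At 21 against 7 days 6 were called (7.32% of all genes), Atp2c2 (1.43 ± 0.45) and Slc46a1 (0.94 ± 0.43) higher, and Lcn2 (-2.13 ± 1.01), Tmprss6 (-1.14 ± 0.37), Steap4 (-1.01 ± 0.48) and Cp (-1.01 ± 0.39) lower.

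A further pair of relations was computed between genes that moved together after 7 days, chosen after their values had been seen. Slc40a1 and Heph were related over the 31 arrays (r = 0.723, permutation p = 0.00052, adjusted p = 0.000693; rho = 0.375, p = 0.0390, adjusted p = 0.0520), but r fell to 0.145 without CRC 7 days male 1 and male 2, so that the relation rests on these arrays. Slc39a14 and Slc11a1 gave r = 0.522 (p = 0.0106, adjusted p = 0.0106) and rho = -0.248 (p = 0.181, adjusted p = 0.181), and r = -0.445 without the same arrays. Within the scan days r was 0.700, 0.811 and 0.0752 for the first pair and 0.540, 0.740 and -0.779 for the second. The only scan day that held both groups at 7 days, with 2 arrays of each, gave E171 differences of 3.33 for Slc30a10, 1.91 for Slc40a1, 1.03 for Heph, 3.45 for Slc39a5, 1.54 for Slc39a4, 0.24 for Slc39a11, -1.34 for Slc39a14, -0.64 for Slc11a1, -0.99 for Slc39a10 and -0.98 for Slc31a2, without a test. The 2 CRC arrays of that scan day were female 1 and male 1, the array lowest in colonocyte markers (-7.57), so that these differences again hold CRC male 1.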

How the data were processed

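RNA of 31 colons was hybridised to Agilent arrays with 1 dye, and the signal intensity per spot was deposited by the authors as written by Feature Extraction (background-subtracted and detrended within the array, probe positions on build mm9, per the file headers). The authors' log2 normalized values of the same arrays, made after removal of flagged and dim spots, imputation and merging of spots, were used as an alternative only, and their method of normalization between arrays is not given in the sources used here. The number of arrays limits the precision. The submitters' processing notes name limma.

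Here, log2 processed intensity minus that of each array's 75th percentile was used, and control spots and spots flagged as outliers were left out. The signal of that percentile was 2672 to 6536 on CRC and 1717 to 4028 on CRC + E171 arrays. A probe was kept when at least 60% of the arrays of 1 group were unflagged and well above background with a mean log2 signal of 4 or more (42787 of 56605 probes). Probes of a gene were averaged after removing each probe's mean. Of the 56605 probes, 12867 had no name in the RefSeq gene table (GRCm38.p6), against which accessions and symbols were matched. limma 3.58.1 in R 4.3.3 was fitted to 8 groups, with 9 comparisons, a call at a fold of 1.5 and an unadjusted p under 0.05, and Benjamini-Hochberg adjustment over all 19797 genes, and was tested on simulated data. Exact permutation tests were two-sided, and 95% confidence intervals came from the model.

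The genes and lists were chosen with earlier results of these data known. Values and statistics were given for genes called in a comparison and for the gene with the largest difference of each role (zinc exporters, zinc importers, manganese and dual carriers, metallothioneins, iron transport, iron storage, copper), and others by range and count. Of 45 other metal genes, those called were named. Other values were singled out after they had been seen. Alternatives comprised quantile normalization, normexp background correction, the authors' values, probe filters, probe choice, samples in the fit, sex, replicate number, scan day and slide as terms, array weights, single arrays left out, 1 group at a time for the day comparisons, and other call rules. Leaving out sets of arrays by marker lists was added after seeing the data. Replicate numbers do not state a pairing, and 8 of 15 pairs of same-numbered arrays correlated above 0.1 in their deviations (range -0.182 to 0.479), so that arrays were not treated as paired. Correlations between arrays ran from 0.81 to 0.99, and no array was a duplicate of another.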

Additional observations from a re-analysis of the deposited data

Results flagged for a closer look

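In groups of 4 arrays, the highest or lowest value was set against the others by the ratio of gap to range for each of the 35 tested metal genes, and 16 of 245 tests exceeded Dixon's 95% critical value (6.53%), close to the 5.93% over all genes tested and to the 1 in 20 that chance gives, so that the number is no sign of an excess. The zinc importer Slc39a4 was 1.03 on CRC 7 days male 1 against 4.49 to 4.77 on the other arrays of that group, and this array was also low in colonocyte markers (-7.57). Of the CRC + E171 arrays at 7 days, Mt4 was -5.90 on female 2 against -4.40 to -4.36, and Slc11a1 was -1.36 on the same array against -0.882 to -0.799, an array low in posterior Hox genes (-4.32). Tfrc, the transferrin receptor, was -0.851 on CRC + E171 7 days male 2 against -0.019 to 0.129. The iron exporter Slc40a1 was -0.441 on CRC + E171 2 days female 2 against 0.753 to 0.976, and this array was high in pancreatic acinar markers (9.70). Slc39a11 was 3.71 on CRC 2 days male 1 against 3.19 to 3.22, an array high in hepatocyte markers (2.77). Fth1 was 6.41 on CRC 14 days male 2 against 6.67 to 6.71, the array whose Xist level goes against its label. Of the other values, Slc39a3 was -0.21 on CRC 7 days male 2 against 0.73 to 0.833, an array low in colonocyte markers (-3.74), and 0.245 on CRC + E171 21 days female 2 against 0.987 to 1.14, an array high in acinar markers (9.76). Slc39a9 was -2.90 on CRC + E171 14 days male 2 against -1.73 to -1.50, an array low in colonocyte markers (-2.48), and the divalent metal transporter Slc11a2 was -2.22 on CRC 7 days male 1 against -1.89 to -1.84. At 2 days, the zinc exporter Slc30a1 was 0.382 on CRC + E171 male 2 against -0.512 to -0.425, an array high in squamous markers (2.24), and Slc39a13 was -1.16 on CRC + E171 male 1 against -1.56 to -1.54. Of the CRC arrays at 2 days, Slc30a4 was 2.0 on male 2 against 2.19 to 2.22, an array high in acinar markers (4.39), Slc30a6 was 1.49 on female 1 against 1.66 to 1.69, and Slc39a1 was 3.89 on male 1 against 3.45 to 3.51. The part of these markers in the outlying values was not tested.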

How the results depend on the processing

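The 18 called differences of single genes kept their call in 159 of 205 refits without 1 array and in 194 of 235 under the other alternatives, apart from the settings added after seeing the data, with 0 reversed in either. The count of called metal genes moved by over 1.5 times in the following cases, each given with the percentage of all genes called in the same refit. With only the arrays of the groups compared it was 1 (2.82%) instead of 0 at 2 days, 3 (4.77%) instead of 10 at 7 days, 1 (7.31%) instead of 0 at 14 days and 1 (3.91%) instead of 2 for day 7 against 2. Array weights gave 0 (3.42%) at 7 days, 6 (12.9%) instead of 0 at 14 days, 1 (2.8%) instead of 0 in the mean effect, 1 (4.36%) instead of 2 for day 7 against 2, 1 (5.26%) for day 21 against 7, and 3 (12.3%) instead of 1 for day 21 against 2. Normexp gave 3 (6.24%) instead of 0 at 14 days, 1 (1.01%) instead of 0 in the mean effect and 1 (5.11%) instead of 2 for day 21 against 7; it moved the median of all genes by 0.091 or less. The authors' values gave 0 (5.67%) instead of 1 for day 21 against 2 (Slc30a10 has no value there) and 1 (6.3%) instead of 2 for day 21 against 7, and moved the median of all genes at 21 days from 0.018 to -0.10, a shift of -0.12. Quantile normalization gave 1 (6.54%) instead of 2 for day 21 against 7. No filter gave 1 (2.24%) instead of 0 at 2 days and 1 (3.19%) at 21 days. The brightest probe gave 2 (6.46%) instead of 1 for day 21 against 2. Scan day as a block gave 1 (5.47%) instead of 0 at 14 days and 0 (5.01%) instead of 1 for day 21 against 2. CRC arrays alone gave 7 (13.4%) instead of 2 for day 7 against 2, 0 (3.58%) instead of 1 for day 21 against 2 and 5 (8.58%) instead of 2 for day 21 against 7, and CRC + E171 arrays alone 0 (3.25%) for day 7 against 2, 1 (9.61%) instead of 3 for day 14 against 2 and 0 (7.8%) for day 21 against 7. A log2 fold change of 1.5 gave 3 (3.34%) at 7 days, 0 (0.455%) for day 7 against 2, 1 (0.773%) for day 14 against 2 and 0 (1.12%) for day 21 against 7, and by adjusted p the counts were 0 for these comparisons and for day 21 against 2 (0% to 0.374%), while with array weights 4 (Slc11a1, Slc39a2, Slc39a13 and Tfrc) had an adjusted p under 0.05 for day 21 against 2 (10.8% of all genes). The cause of these shifts was not tested.

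With sex and replicate number as a replicate block, which the data do not show to pair the arrays, the count was 1 (7.67%) instead of 0 at 14 days (Slc39a8), 0 (6.91%) instead of 1 for day 21 against 2 and 1 (6.87%) instead of 2 for day 21 against 7, and equal to the main count in the other 6 comparisons (10 at 7 days).

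Without single arrays the counts, with the share of all genes called over the same refits, ranged from 0 to 0 (0.763% to 3.55%) at 2 days, 4 to 14 (4.62% to 20.1%) at 7 days, 0 to 5 (880 to 2127 of all 19797 genes) at 14 days, 0 to 1 (2.21% to 4.5%) at 21 days, 0 to 3 (1.13% to 4%) in the mean effect, 0 to 5 (2.62% to 10.1%) for day 7 against 2, 2 to 3 (3.52% to 6.38%) for day 14 against 2, 0 to 2 (4.26% to 8.63%) for day 21 against 2 and 1 to 7 (5.45% to 11.6%) for day 21 against 7. The highest count at 14 days came without CRC + E171 male 2 (Slc30a1, Slc30a4, Slc30a10, Slc39a8 and Slc39a9), and the count for day 21 against 7 was 7 (2287 of all 19797 genes) without CRC 7 days female 1.

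Of the 297 differences that were not called, 92 changed direction without 1 array and 240 changed direction or moved by over 1.5 times.

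Settings added after seeing the data left out arrays by marker lists. Without CRC 7 days male 1 and male 2 the counts were 0 (2.3%) at 7 days, 0 (1.52%) for day 7 against 2 and 1 (3.82%) for day 21 against 7. Without the 3 arrays low in colonocyte markers they were 0 (2.64%) at 7 days, 9 (14.1%) at 14 days, 1 (4.3%) at 21 days, 1 (1.65%) in the mean effect, 0 (1.66%) for day 7 against 2 and 1 (4.19%) for day 21 against 7. Without the 5 arrays high in acinar markers they were 3 (2.61%) in the mean effect, 4 (7.03%) for day 7 against 2, 0 (5.28%) for day 21 against 2 and 1 (10.5%) for day 21 against 7, and without the 5 high in squamous markers 4 (5.92%) at 7 days, 6 (11.9%) at 14 days, 1 (3.05%) in the mean effect and 1 (3.11%) for day 7 against 2. Without the 6 arrays low in colonocyte or posterior Hox genes they were 0 (2.77%) at 7 days, 1 (4.68%) at 21 days, 1 (1.67%) for day 7 against 2 and 1 (4.76%) for day 21 against 7; the 2 (9.86%) at 14 days set 1 exposed array (male 1) against 4, with the spread taken from the other groups. Under these settings Slc39a14 was reversed at 7 days (0.073 without the 2 CRC males and without the arrays low in colonocyte markers), and without the 6 arrays Slc11a1 (0.031) and Slc39a5 (-0.17) were reversed at 7 days and Slc39a14 (-0.023) for day 7 against 2. Signal near background limits Slc30a10 and Hamp, and 4 against 4 arrays cannot give an exact p below 0.0286.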
